A study of Mus musculus with 21 samples.

Results

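The genes described here are 8 secreted or shed growth factors that act on lung epithelium: Hgf, Fgf2, Fgf7, Fgf18, Nrg1, Areg, Ereg and Hbegf. They were chosen by name, all 8 were matched among the 23204 gene symbols counted, and each was followed through all 21 libraries. Of the 8, 7 passed the filter on low counts; Areg did not. All animals were female C57BL/6 mice with a Col1a2-GFP transgene, in which a Col1a2 promoter drives green fluorescent protein, and the labels give no age. Silica (SiO2, 400 mg/kg) was aspirated to start fibrosis that the series calls progressive, and bleomycin (BLM, 2 mg/kg) to start fibrosis that it calls reversible. The 7 groups were SiO2 day 7, 14 and 63, BLM day 7, 14 and 63, and untreated mice, with 3 libraries in each. Live GFP-positive cells without CD45, CD31, EpCAM, CD146 or Ter119 were sorted, with the same number of cells for each sample, and the 3′ ends of their polyadenylated RNA were sequenced. The same promoter that marks the cells belongs to a gene that varied, as Col1a2 averaged 6361 ± 351 CPM (counts scaled to a common library total) at SiO2 day 7 and 1576 ± 93.2 CPM in untreated mice (SD, n = 3 each).

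Fibroblasts lie beneath the alveolar and airway epithelium and send it growth signals through receptor tyrosine kinases. Hepatocyte growth factor signals through Met, fibroblast growth factors through the Fgfr receptors with heparan sulphate as a co-receptor, and amphiregulin, epiregulin, heparin-binding EGF-like growth factor and neuregulin through the ErbB receptors. The ErbB ligands are made as membrane-anchored precursors that proteases of the ADAM family release, and in the lung these pathways are known for their roles in the growth and repair of epithelium.

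Total counts per library ran from 2080636 to 4477283, with a median of 3774431, and 11669 symbols passed the filter and were tested. Levels are CPM after TMM scaling, given in the order of replicates 1, 2 and 3 and summarised as mean ± SD of 3 libraries. Differences are log2 fold changes ± SE from edgeR's quasi-likelihood test. The SE was derived as the absolute log2 fold change divided by the square root of the test's F statistic. "Rose", "fell" and "called" mark a Benjamini-Hochberg adjusted p under 0.05 over all 11669 genes. Because the tags come from 3′ ends, splice forms cannot be told apart. The labels do not say whether the 3 libraries of a group came from separate mice, so p-values measure only the spread between these samples. In bulk libraries, fewer cells of a type and less RNA per cell cannot be told apart. The markers of fibroblasts were abundant in all 21 libraries, with Pdgfra at 83.7 to 140 CPM, while the leukocyte gene Ptprc did not exceed 1.19 CPM and the epithelial gene Epcam did not exceed 1.21 CPM. Their proteins, CD45 and EpCAM, were among those sorted against. Other lists were higher, as 6 mesothelial markers summed to 515 to 640 CPM in untreated mice. Sums reached 216 CPM for 8 pericyte and smooth muscle markers (BLM day 14) and 72.7 CPM for 5 lymphocyte markers (SiO2 day 7). They reached 33.7 CPM for 9 epithelial markers (BLM day 7) and 32.4 CPM for 7 myeloid markers (SiO2 day 14).

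Hgf, the ligand of Met and a mitogen of alveolar type II cells, is a gene on chromosome 5 (16553495 to 16620152, plus strand, mm10). It was highest at BLM day 63 and lowest at SiO2 day 7. After silica it stood at 65.5, 73.6 and 63.3 CPM on day 7, at 106, 99.1 and 77.0 CPM on day 14 and at 89.1, 80.1 and 73.2 CPM on day 63. After bleomycin it stood at 86.2, 78.2 and 87.5 CPM on day 7, at 77.0, 71.7 and 70.2 CPM on day 14 and at 134, 133 and 115 CPM on day 63, against 81.3, 85.4 and 103 CPM in untreated mice. The 3 BLM day 63 libraries lay above all 18 others, and the SiO2 day 7 libraries lay below the untreated ones. Hgf fell at SiO2 day 7 (-0.41 ± 0.12, adjusted p = 0.00826), a call that was lost without untreated replicate 3 (adjusted p = 0.0533). It rose at BLM day 63 (0.51 ± 0.12, adjusted p = 0.00443). At BLM day 14 the libraries lay below the untreated ones without passing the test (-0.29 ± 0.12, adjusted p = 0.0612). That difference passed under upper quartile scaling (adjusted p = 0.0188), without untreated replicate 1 (0.0388) and with SiO2 day 14 replicate 3 left out (0.0432).

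Fgf7, keratinocyte growth factor, acts on the epithelial form of Fgfr2 and lies on chromosome 2 (126034658 to 126091185, plus strand). It fell early in the bleomycin series and then stood above untreated mice at day 63. Silica libraries held 58.2, 61.4 and 56.4 CPM on day 7, 82.0, 79.9 and 65.1 CPM on day 14 and 92.2, 81.5 and 76.8 CPM on day 63. Bleomycin libraries held 41.2, 37.8 and 39.0 CPM on day 7, 39.9, 42.7 and 38.7 CPM on day 14 and 90.3, 92.1 and 98.3 CPM on day 63, against 61.9, 64.6 and 79.6 CPM in untreated mice. The BLM day 7 and day 14 libraries overlapped each other and lay below the other 15. Fgf7 fell at BLM day 7 (-0.79 ± 0.12, adjusted p = 9.66e-06) and at BLM day 14 (-0.75 ± 0.13, adjusted p = 1.48e-05). It rose at BLM day 63 (0.46 ± 0.12, adjusted p = 0.00779), a call lost without untreated replicate 1 (adjusted p = 0.0687). After silica it was not called against untreated mice on day 7 (-0.21 ± 0.12), day 14 (0.15 ± 0.12) or day 63 (0.29 ± 0.12, adjusted p = 0.0597). The day 7 difference passed under upper quartile scaling (adjusted p = 0.0438). The day 63 difference passed with limma-voom and in 3 fits that left out a library, the lowest adjusted p being 0.0189. The gene overlaps the coding gene Fam227b on the opposite strand with 0 shared exon bases; Fam227b had at most 5 counts in a library.

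Across the 21 libraries Hgf and Fgf7 had a Pearson correlation of log2 CPM of 0.62, given as a description over points that share groups and scaling. The 250 bases upstream of a RefSeq start of each gene (GRCm38.p6) are shown because these epithelial factors both rose between day 14 and day 63 of the bleomycin series. For Hgf the window is chr5:16553245-16553494 on the plus strand, with capitals marking a match to the forkhead letters GTAAACA. For Fgf7 it is chr2:126034408-126034657 on the plus strand, with capitals marking a match to the CCAAT box.
Hgf: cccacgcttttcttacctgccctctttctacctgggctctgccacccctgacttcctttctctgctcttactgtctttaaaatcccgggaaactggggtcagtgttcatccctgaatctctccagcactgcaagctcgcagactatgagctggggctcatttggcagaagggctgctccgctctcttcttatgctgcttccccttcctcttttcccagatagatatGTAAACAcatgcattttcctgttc
Fgf7: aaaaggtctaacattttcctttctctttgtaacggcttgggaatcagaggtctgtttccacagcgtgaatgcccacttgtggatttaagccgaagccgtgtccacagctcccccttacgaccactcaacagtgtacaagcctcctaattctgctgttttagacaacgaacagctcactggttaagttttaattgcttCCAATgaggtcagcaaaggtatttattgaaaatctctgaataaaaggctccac
On either strand, GTAAACA occurred in 3.17% and CCAAT in 33.8% of 32851 promoter windows of this length. The AP-1 letters TGANTCA occurred in 6.75% of windows and the CRE letters TGACGTCA in 1.55%. The GC box was searched as GGGCGG and found in 32.7% of windows, and the TATA box was searched as TATAAA and found in 12.4%. The STAT letters TTCNNNGAA occurred in 7.02% of windows, and the TEAD letters were searched as ACATTCC and found in 3.25%. None of these 6 is in either window shown. Of the 8 genes, 5 had an entry in the promoter table; Nrg1, Ereg and Hbegf had none. Among the windows not shown, that of a second Hgf start (16553651 to 16553900) held none of the 8 motifs, that of Areg held a CRE, a GC box and a TATA box, and those of Fgf2 and Fgf18 held a GC box. A match is a description of the letters and not a measured binding site.

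Fgf2, basic fibroblast growth factor, is a broad mitogen that leaves cells without a classical secretion signal and is stored on heparan sulphate. It lies on chromosome 3 (37348346 to 37410108, plus strand) and rose at BLM days 7 and 14. Bleomycin libraries held 431, 434 and 466 CPM on day 7, 387, 369 and 357 CPM on day 14 and 194, 214 and 204 CPM on day 63. Silica libraries held 206, 239 and 249 CPM on day 7, 244, 225 and 213 CPM on day 14 and 187, 167 and 148 CPM on day 63, against 196, 237 and 229 CPM in untreated mice. The 3 BLM day 7 libraries were above the 3 of BLM day 14, and both groups were above the other 15 libraries. The increase was 1.01 ± 0.10 at BLM day 7 (adjusted p = 6.65e-09) and 0.75 ± 0.10 at BLM day 14 (adjusted p = 7.68e-07), and at BLM day 63 the difference was not called (-0.11 ± 0.10, adjusted p = 0.558). Fgf2 fell at SiO2 day 63 (-0.40 ± 0.10, adjusted p = 0.00365), where each library was below each untreated library, and was not called at SiO2 day 7 (0.07 ± 0.10) or day 14 (0.04 ± 0.10). Its gene shares 640 exon bases with Nudt6 on the opposite strand, and whether the counting used strand is not given in the sources used here. Nudt6 itself had 1 to 8 counts per library.

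Fgf18, a factor of lung growth and of developing mesenchyme, lies on chromosome 11 (33117430 to 33147400, minus strand) and was lowest at SiO2 day 7. Silica libraries held 6.52, 8.24 and 4.05 CPM on day 7, 8.62, 9.06 and 14.8 CPM on day 14 and 18.4, 11.4 and 16.7 CPM on day 63. Bleomycin libraries held 11.9, 10.6 and 13.9 CPM on day 7, 10.6, 12.0 and 14.1 CPM on day 14 and 10.7, 9.18 and 19.3 CPM on day 63, against 13.2, 10.3 and 11.2 CPM in untreated mice. The 3 SiO2 day 7 libraries lay below the other 18, and the remaining groups overlapped the untreated one or, for SiO2 day 63, exceeded it in part. Fgf18 fell at SiO2 day 7 (-0.89 ± 0.30, adjusted p = 0.0160). The call was lost without untreated replicate 1 (adjusted p = 0.0744) and without SiO2 day 7 replicate 3 (adjusted p = 0.101). It was not called in the 5 other treated groups, whose differences from untreated mice ran from -0.09 to 0.42.

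**Figure D1:**
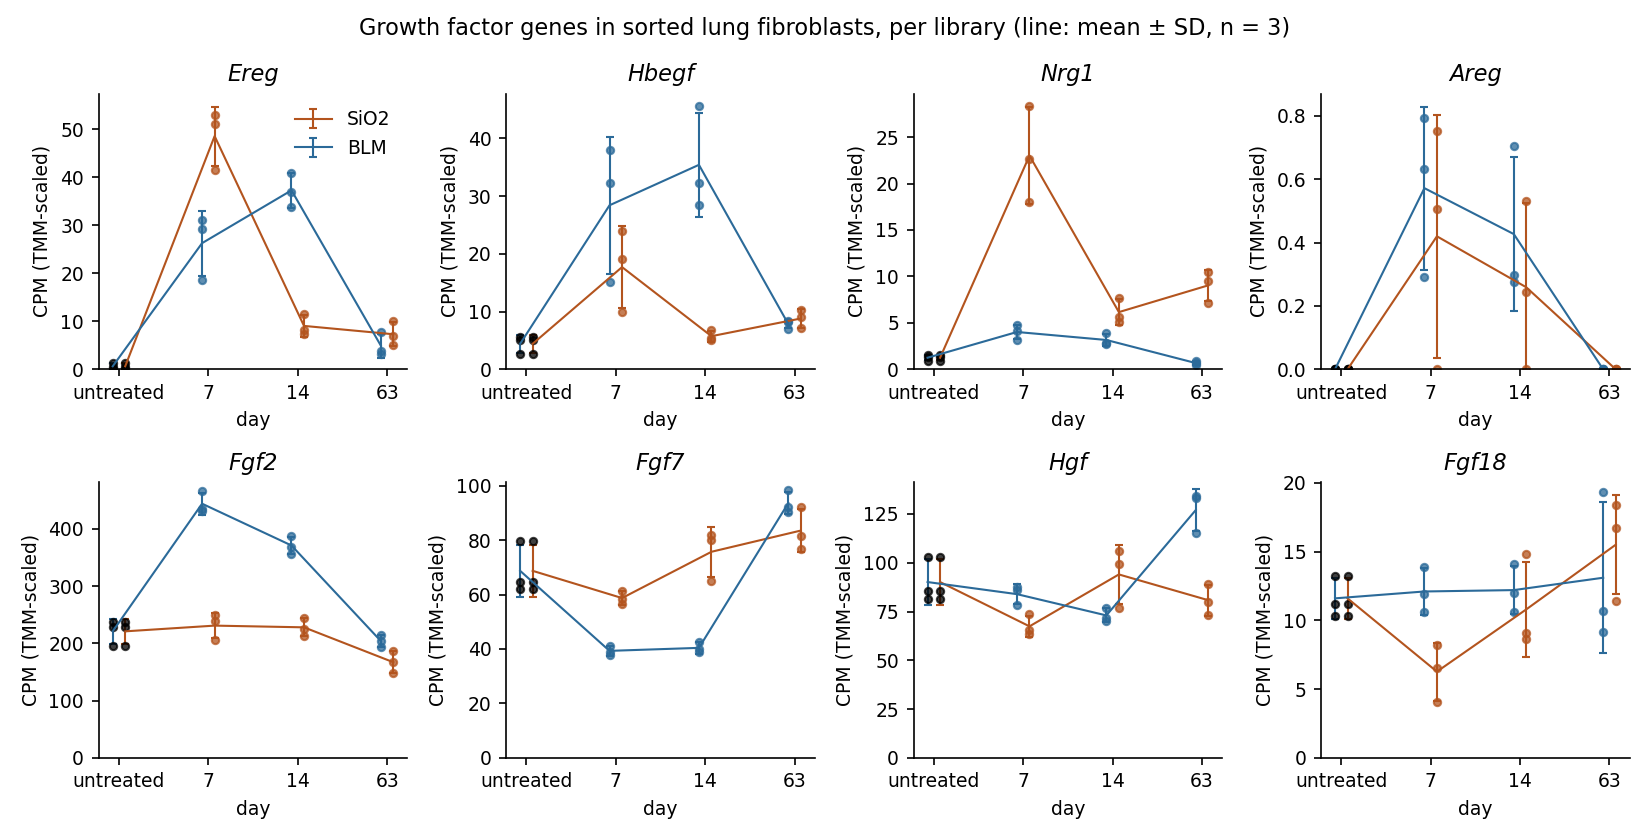
Level of each of the 8 genes in CPM after TMM scaling (vertical axes) in untreated mice and at day 7, 14 and 63 after silica or bleomycin (horizontal axes), with a point for each library, lines through the group means and bars of 1 SD (n = 3); the untreated libraries (black) start both lines. Fgf2 peaks and Fgf7 dips in the early bleomycin groups, Nrg1 peaks at SiO2 day 7, and Areg stays under 1 CPM throughout.

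Epiregulin, encoded by Ereg on chromosome 5 (91074622 to 91093646, plus strand), is a ligand of Egfr and Erbb4. It rose against untreated mice in all 6 treated groups. Silica libraries held 41.6, 53.1 and 51.1 CPM on day 7, 11.6, 8.26 and 7.29 CPM on day 14 and 4.99, 6.92 and 10.0 CPM on day 63. Bleomycin libraries held 18.6, 31.2 and 29.2 CPM on day 7, 41.0, 33.8 and 37.0 CPM on day 14 and 3.24, 7.75 and 3.78 CPM on day 63, against 0, 0.502 and 1.40 CPM in untreated mice. Every treated library was above every untreated one. The silica groups were highest on day 7 and the bleomycin groups on day 14, and the 3 lowest treated groups (SiO2 day 14, SiO2 day 63 and BLM day 63) overlapped in part. The log2 fold change was 6.50 ± 0.41 at SiO2 day 7 (adjusted p = 1.09e-13), 4.06 ± 0.54 at SiO2 day 14 (1.17e-06) and 3.79 ± 0.56 at SiO2 day 63 (3.73e-06). It was 5.61 ± 0.45 at BLM day 7 (adjusted p = 6.57e-11), 6.11 ± 0.43 at BLM day 14 (1.28e-12) and 3.16 ± 0.61 at BLM day 63 (6.18e-04). The size of these changes rests on 0, 2 and 3 counts in the untreated libraries, and Ereg passed the filter through its treated groups. Without untreated replicate 1 they ran from 2.49 (BLM day 63) to 5.82 (SiO2 day 7), and without untreated replicate 3 from 4.06 to 7.39, with all 6 still called. The antisense gene Gm19610 shares 141 exon bases with Ereg.

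Hbegf, heparin-binding EGF-like growth factor, binds Egfr and Erbb4 and lies on chromosome 18 (36504927 to 36515805, minus strand). It rose early in both models. Silica libraries held 10.0, 19.1 and 24.0 CPM on day 7, 5.35, 5.06 and 6.80 CPM on day 14 and 7.10, 9.05 and 10.2 CPM on day 63. Bleomycin libraries held 15.1, 32.2 and 38.0 CPM on day 7, 45.6, 32.3 and 28.5 CPM on day 14 and 6.97, 8.32 and 8.23 CPM on day 63, against 2.59, 5.53 and 5.15 CPM in untreated mice. SiO2 day 14 was the only treated group that overlapped the untreated libraries, and within both day 7 groups replicate 1 lay well below replicates 2 and 3. Hbegf rose at SiO2 day 7 (2.03 ± 0.35, adjusted p = 2.27e-05), BLM day 7 (2.70 ± 0.34, 2.45e-07) and BLM day 14 (3.01 ± 0.33, 1.41e-08). It was not called at SiO2 day 14 (0.41 ± 0.42, adjusted p = 0.527) or BLM day 63 (0.85 ± 0.40, adjusted p = 0.179). The call at SiO2 day 63 (1.03 ± 0.39, adjusted p = 0.0467) was lost in 13 other fits. Of the libraries in that comparison, leaving out untreated replicate 1 (adjusted p = 0.263) or 3 (0.0662), or SiO2 day 63 replicate 2 (0.0910) or 3 (0.153), ended it.

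Areg, amphiregulin, a ligand of Egfr on chromosome 5 (91139599 to 91148432, plus strand), was at or near the detection limit everywhere. The libraries of SiO2 day 7 had 3, 0 and 2 counts, those of SiO2 day 14 had 0, 2 and 1, those of BLM day 7 had 1, 3 and 2 and those of BLM day 14 had 2, 1 and 1. All 9 libraries of SiO2 day 63, BLM day 63 and untreated mice had 0 counts. The highest group, BLM day 7, had 6 counts in all, or 0.573 CPM with an exact Poisson 95% interval of 0.210 to 1.25 CPM. For the 0 counts over the untreated libraries the same interval reached 0.373 CPM, and 3 counts there would be 0.303 CPM. These limits cover counting error only, and no fold change or test is given for Areg.

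Neuregulin 1, encoded by Nrg1 on chromosome 8 (31814551 to 32884029, minus strand), is a ligand of Erbb3 and Erbb4 and had the largest difference between the models of the 7 tested factors on days 7 and 63. Silica libraries held 28.3, 22.6 and 18.0 CPM on day 7, 5.65, 7.73 and 5.10 CPM on day 14 and 9.46, 7.19 and 10.5 CPM on day 63. Bleomycin libraries held 3.19, 4.75 and 4.12 CPM on day 7, 2.83, 3.88 and 2.76 CPM on day 14 and 0.498, 0.861 and 0.667 CPM on day 63, against 1.30, 1.51 and 0.936 CPM in untreated mice. All 9 silica libraries were above all 9 bleomycin libraries, and the BLM day 63 libraries, with 2, 3 and 3 counts, were below the untreated ones, with 5, 6 and 2 counts. As with Ereg, the gene passed the filter through its other treated groups. The size of its changes against untreated mice rests on those few untreated counts. Nrg1 rose at SiO2 day 7 (4.11 ± 0.31, adjusted p = 3.68e-12), day 14 (2.21 ± 0.37, 3.25e-05) and day 63 (2.77 ± 0.35, 2.01e-07). It rose by less at BLM day 7 (1.61 ± 0.40, adjusted p = 0.00232) and day 14 (1.26 ± 0.42, adjusted p = 0.0180), and it was not called at BLM day 63 (-0.93 ± 0.56, adjusted p = 0.361). The BLM day 14 call was lost with limma-voom (adjusted p = 0.0621) and when untreated replicate 1 (0.0546) or BLM day 14 replicate 2 (0.0850) was left out. The long noncoding RNA gene Gm26578 shares 482 exon bases with Nrg1 on the opposite strand.

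**Figure D2:**
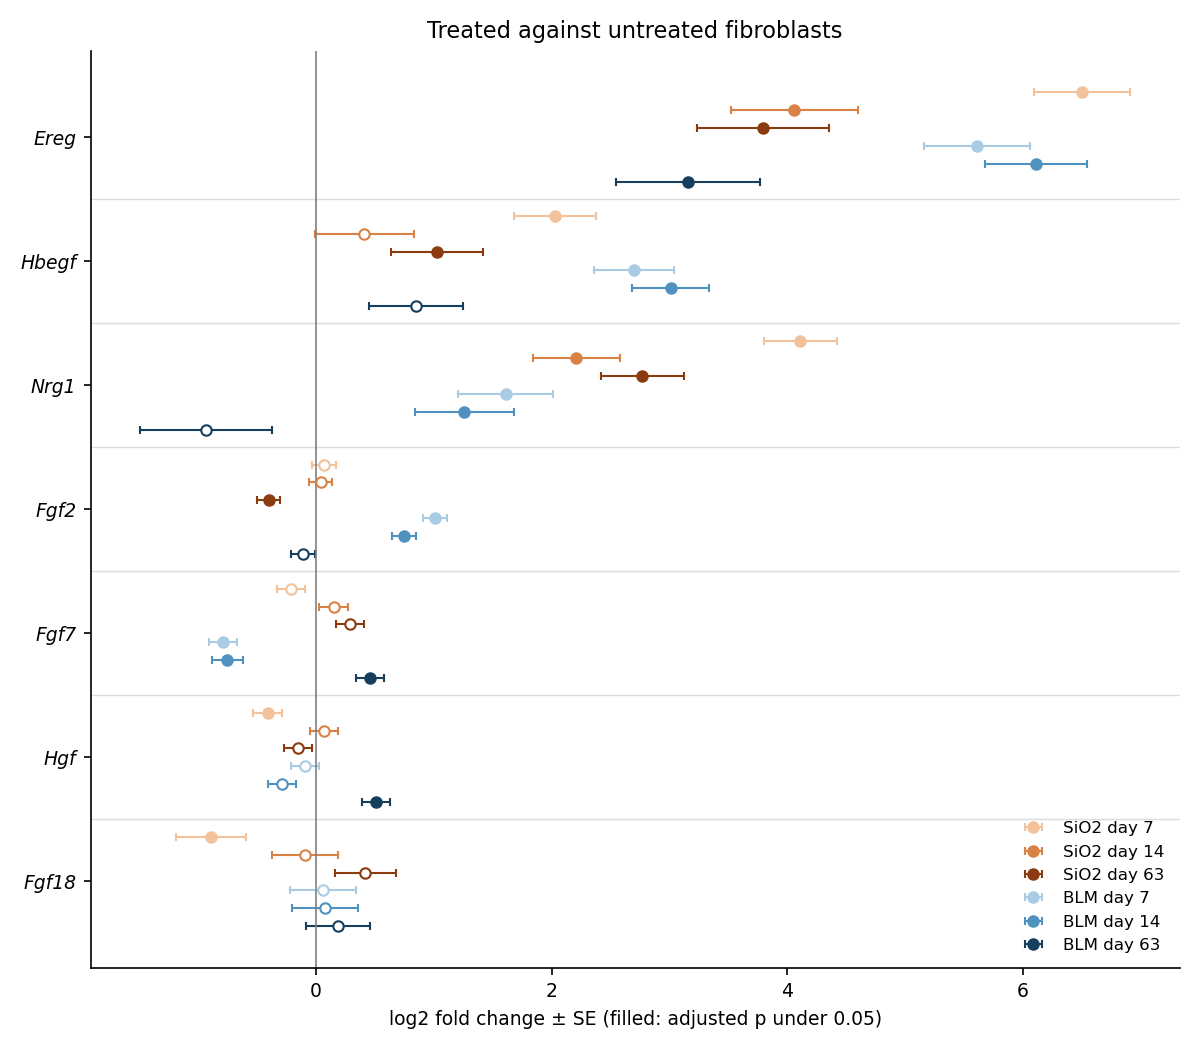
Log2 fold change of each tested gene against untreated mice, from edgeR's quasi-likelihood test, at day 7, 14 and 63 of each model, with bars of 1 SE, 3 libraries per group and filled points for calls. Ereg is above 3 in all 6 groups, while Hgf, Fgf7 and Fgf18 stay between -1 and 1.

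The counts of called factors are set beside the share of all tested genes called, and the 6 comparisons with untreated mice share the same 3 untreated libraries. The ErbB ligands made up most of the factors that rose. At SiO2 day 7, 3 rose and 2 fell, and 44.1% of all tested genes were called (23.4% higher, 20.6% lower). At SiO2 day 14, 2 rose and 0 fell, beside 24.1% of all genes (13.6% higher, 10.5% lower). At SiO2 day 63, 3 rose and 1 fell, beside 27.8% (15.3% higher, 12.5% lower). The genes that rose in the silica series were Nrg1 and Ereg at every time and Hbegf at days 7 and 63. At BLM day 7, 4 rose and 1 fell, beside 31.6% of all genes (16.7% higher, 14.9% lower). At BLM day 14 it was again 4 and 1, beside 39.3% (20.7% higher, 18.5% lower), and at BLM day 63 it was 3 and 0, beside 11.5% (6.02% higher, 5.48% lower). Over the 6 comparisons the share of calls that were higher was 52.3% to 56.4%, and 44.8% to 47.2% under upper quartile scaling, with the widest gap at SiO2 day 14 (56.4% and 44.8%). The same genes, Fgf2, Nrg1, Ereg and Hbegf, rose on BLM days 7 and 14, and Hgf, Fgf7 and Ereg rose on BLM day 63. The median log2 fold change of the tested factors was 0.07 at SiO2 day 7, 0.15 at day 14 and 0.42 at day 63, and 1.01, 0.75 and 0.46 at the same days after bleomycin, while that of all tested genes lay between 0.01 and 0.04.

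The direct comparison of the models sets silica against bleomycin on the same day. Agent and dose differed together with the course that the series names, so these cannot be told apart. At day 7, SiO2 libraries averaged 23.0 ± 5.20 CPM of Nrg1 and BLM libraries 4.02 ± 0.786 CPM (2.50 ± 0.25, adjusted p = 1.68e-08). Ereg (0.88 ± 0.21, adjusted p = 0.00526) and Fgf7 (0.58 ± 0.12, adjusted p = 0.00170) were also higher after silica, and Fgf2 (-0.94 ± 0.10, adjusted p = 8.84e-08) and Fgf18 (-0.95 ± 0.30, adjusted p = 0.0348) were lower. In total 5 of 7 were called, beside 10.4% of all tested genes (5.29% higher, 5.10% lower). The Ereg call was lost without BLM day 7 replicate 1 (adjusted p = 0.0579), and the Fgf18 call without replicate 1 or 3 of either group (adjusted p from 0.0617 to 0.189). Hbegf was not called (-0.68 ± 0.27, adjusted p = 0.105), but it was with no filter on low counts (0.00957), without BLM day 7 replicate 1 (0.00893) and without SiO2 day 7 replicate 3 (0.0380).

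At day 14 Ereg and Hbegf were lower after silica than after bleomycin. Ereg averaged 9.05 ± 2.26 CPM in SiO2 libraries and 37.3 ± 3.61 CPM in BLM libraries (-2.05 ± 0.25, adjusted p = 3.80e-07), and Hbegf 5.74 ± 0.933 and 35.4 ± 8.98 CPM in the same groups (-2.60 ± 0.31, adjusted p = 2.16e-07). Fgf2 was also lower after silica (-0.70 ± 0.10, adjusted p = 6.51e-06), and Fgf7 was higher (0.90 ± 0.12, adjusted p = 2.11e-06). Hgf (0.36 ± 0.12, adjusted p = 0.0389) and Nrg1 (0.95 ± 0.31, adjusted p = 0.0303) were called higher after silica, which made 6 of 7 called beside 17.1% of all tested genes (9.06% higher, 8.03% lower). Both of these weaker calls were lost with DESeq2 (adjusted p = 0.0545 and 0.0831), with limma-voom (0.0561 and 0.0677) and with no filter on low counts (0.0677 and 0.0758). Fitting only the groups compared also lost both (adjusted p = 0.0707 and 0.0652). The call was also lost for Hgf without any BLM day 14 replicate or SiO2 day 14 replicate 1 or 2 (adjusted p from 0.0588 to 0.200), and for Nrg1 without BLM day 14 replicate 1 or 3 or SiO2 day 14 replicate 2 (0.102 to 0.152).

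By day 63 the models differed in 2 of 7 factors, beside 15.6% of all tested genes (9.13% higher, 6.44% lower). Nrg1 averaged 9.04 ± 1.68 CPM in SiO2 libraries and 0.675 ± 0.182 CPM in BLM libraries (3.70 ± 0.37, adjusted p = 9.36e-09). The size of this difference rests on 2, 3 and 3 counts in the BLM libraries. Hgf averaged 80.8 ± 7.95 CPM in SiO2 libraries and 127 ± 10.6 CPM in BLM libraries (-0.66 ± 0.12, adjusted p = 1.57e-04). Fgf2 libraries did not overlap between the models, and the difference missed the threshold (-0.29 ± 0.10, adjusted p = 0.0573). It passed with DESeq2 (adjusted p = 0.0446), limma-voom (0.0432), upper quartile scaling (0.0197) and without SiO2 day 63 replicate 1 (0.0269).

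**Figure D3:**
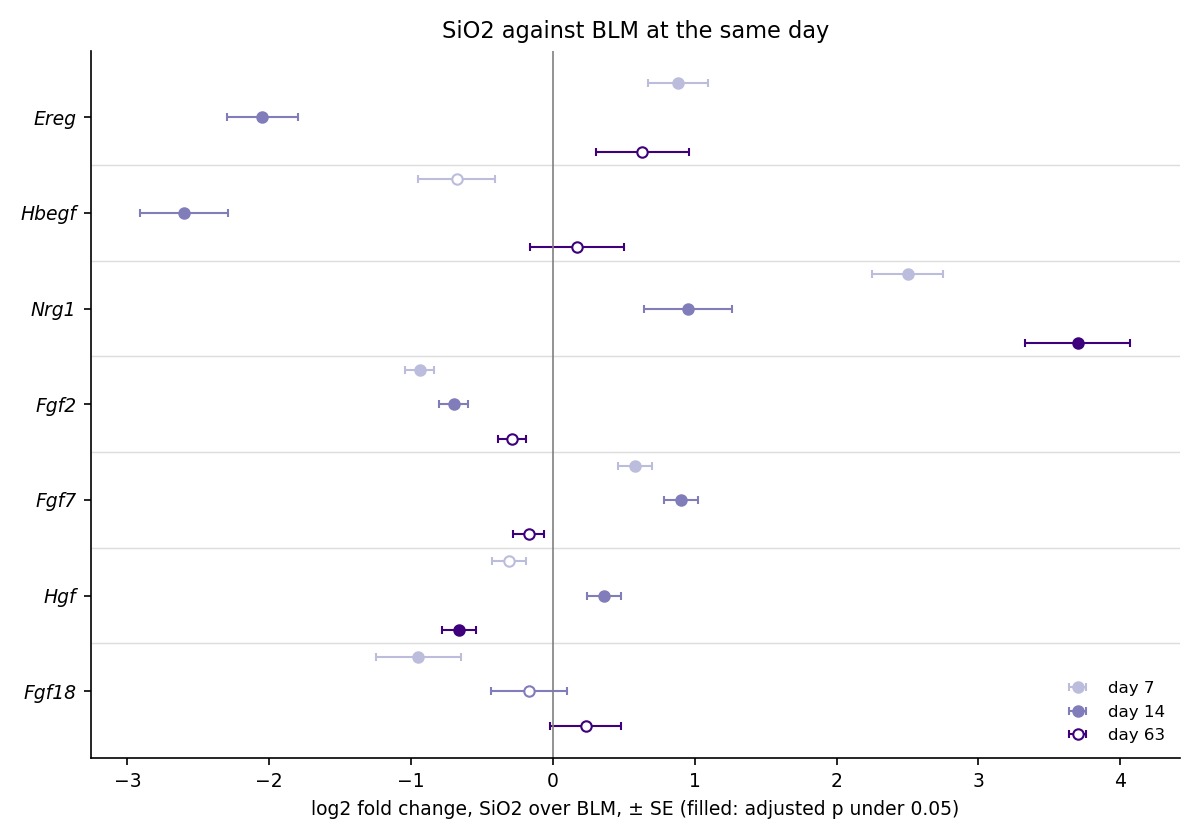
Log2 fold change of SiO2 over BLM libraries on the same day for each tested gene (edgeR's quasi-likelihood test), with bars of 1 SE, 3 libraries per group and filled points for calls. Nrg1 is above 0 on all 3 days, at 2.50, 0.95 and 3.70, and Hbegf and Ereg lie below -2 on day 14.

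Between day 14 and day 63 most factors changed in the bleomycin series. In bleomycin mice 6 of 7 were called, beside 32.3% of all tested genes (15.4% higher, 16.9% lower). Hgf (0.80 ± 0.12, adjusted p = 4.91e-06) and Fgf7 (1.21 ± 0.12, adjusted p = 3.87e-09) were higher at BLM day 63 than at BLM day 14. Fgf2 (-0.86 ± 0.10, adjusted p = 1.03e-07), Nrg1 (-2.19 ± 0.46, 4.47e-04), Ereg (-2.95 ± 0.28, 9.27e-10) and Hbegf (-2.16 ± 0.29, 7.31e-07) were lower. The size of the Nrg1 change rests on 2, 3 and 3 counts at BLM day 63 and 8, 13 and 10 counts at BLM day 14. In silica mice 1 of 7 was called, Fgf2 (-0.45 ± 0.10, adjusted p = 0.0116), beside 3.52% of all tested genes (1.53% higher, 2.00% lower). That call was lost without SiO2 day 14 replicate 1 (adjusted p = 0.0672), SiO2 day 63 replicate 2 (0.0507) or SiO2 day 63 replicate 3 (0.0970).

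The interaction of model and time tests whether the change from day 14 to day 63 after silica differs from that after bleomycin. It was called for 6 of 7 factors, beside 18.5% of all tested genes (9.70% above 0, 8.81% below 0). The change after silica minus that after bleomycin was 2.75 ± 0.53 for Nrg1 (adjusted p = 2.55e-04), 2.68 ± 0.42 for Ereg (1.72e-05) and 2.77 ± 0.46 for Hbegf (3.95e-05). It was -1.02 ± 0.17 for Hgf (adjusted p = 4.69e-05) and -1.07 ± 0.17 for Fgf7 (1.72e-05). The size of the Nrg1 value rests on few bleomycin counts, with 2, 3 and 3 at BLM day 63. The fitted change after silica was 0.56 for Nrg1, -0.27 for Ereg, 0.61 for Hbegf, -0.22 for Hgf and 0.14 for Fgf7, none of them called, beside the called changes after bleomycin given above. For Ereg and Hbegf the silica means were 48.6 and 17.7 CPM on day 7 and already 9.05 and 5.74 CPM on day 14. On day 63 no model difference was called for Ereg (0.63 ± 0.33, adjusted p = 0.237) or Hbegf (0.17 ± 0.33, adjusted p = 0.805). For Fgf2 the interaction was 0.42 ± 0.15 (adjusted p = 0.0448), a call lost in 17 other fits, with adjusted p up to 0.151 without SiO2 day 63 replicate 1. For Fgf18 the interaction was not called (0.39 ± 0.37, adjusted p = 0.528).

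Over the 21 libraries some factors varied together and some against each other, given here as Pearson correlations of log2 CPM without a test, since the libraries share groups. Ereg and Hbegf had r = 0.83, and Fgf2 and Hbegf r = 0.75. Fgf7 ran against Fgf2 (r = -0.87) and Hbegf (r = -0.78), and Hgf ran against Nrg1 (r = -0.69). Among tested genes with a mean of at least 10 CPM, the closest patterns were those of Cacna2d1 for Hgf (r = 0.88), Lingo1 for Fgf2 (0.91), Angpt2 for Fgf7 (0.92) and Itpr2 for Fgf18 (0.76). For the ErbB ligands they were Slc16a1 for Nrg1 (0.95), Tram1 for Ereg (0.96) and Fmnl3 for Hbegf (0.94).

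Other ligands of the same families were followed from fixed lists. Betacellulin, an Egfr ligand encoded by Btc, rose at SiO2 day 7 (30.3 ± 5.38 CPM, against 7.41 ± 2.10 CPM in untreated mice, 1.97 ± 0.23, adjusted p = 2.68e-08). Its rise at SiO2 day 14 (0.77 ± 0.25, adjusted p = 0.0240) was lost without untreated replicate 1 or 3 or SiO2 day 14 replicate 1 or 2. The neuregulin gene Nrg2 fell at SiO2 day 7 (1.54 ± 0.250 CPM, against 11.5 ± 1.93 CPM in untreated mice), SiO2 day 63, BLM day 7 and BLM day 14, with log2 fold changes of -2.91 ± 0.33, -1.18 ± 0.27, -1.40 ± 0.28 and -2.31 ± 0.32. Nrg2 was not called at SiO2 day 14 (-0.49 ± 0.25) or BLM day 63 (-0.53 ± 0.25). These were the 2 other EGF-family ligands tested. Of the other FGF ligands 3 were tested. Fgf10, a mesenchymal factor needed for lung branching, fell at SiO2 day 7 (-1.07 ± 0.19, adjusted p = 3.25e-05) and BLM day 14 (-0.64 ± 0.19, adjusted p = 0.00718), the second call being lost without BLM day 14 replicate 3. Fgf1 fell at SiO2 day 7 (-1.94 ± 0.58, adjusted p = 0.00728) at low levels, 0.761 ± 0.500 CPM against 3.12 ± 0.617 CPM in untreated mice. Fgf23, best known as a phosphate-regulating hormone of bone, was called higher in all treated groups but BLM day 63, and stood at 8.41, 9.32 and 7.35 CPM at SiO2 day 63, against 0, 0.251 and 0 CPM in untreated mice. The size of its fitted fold change rests on 1 untreated count and is not given.

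Among receptor genes counted in these sorted cells, Egfr rose in 5 of 6 treated groups. It averaged 38.0 ± 4.61 CPM at SiO2 day 7, 30.1 ± 3.32 at SiO2 day 14, 27.7 ± 1.29 at SiO2 day 63, 27.8 ± 4.23 at BLM day 7, 34.7 ± 2.08 at BLM day 14 and 18.7 ± 2.26 CPM at BLM day 63, against 18.2 ± 3.67 CPM in untreated mice. The largest change was at SiO2 day 7 (1.07 ± 0.16, adjusted p = 2.86e-06), and BLM day 63 was not called (0.06 ± 0.17). The Egfr calls at BLM day 7 and SiO2 day 63 were lost without untreated replicate 1 (adjusted p = 0.0670 and 0.0806). Erbb2 was not called in any of the 6 (differences from -0.65 to 0.24). Fgfr4 fell in all 6 treated groups, with log2 fold changes from -2.47 ± 0.34 (BLM day 14) to -1.18 ± 0.29 (SiO2 day 14); its calls at SiO2 day 14 and BLM day 63 were lost without untreated replicate 1. Fgfr3 fell in the silica groups and at BLM days 7 and 14, most at SiO2 day 7 (-2.22 ± 0.21, adjusted p = 6.48e-10). Fgfr1, the most counted of them, changed little. Fgfr1 was not called at SiO2 day 7 (0.00 ± 0.09), BLM day 7 (-0.11 ± 0.09) or BLM day 63 (0.03 ± 0.09). It rose at SiO2 day 14 (0.27 ± 0.09), SiO2 day 63 (0.33 ± 0.09) and BLM day 14 (0.31 ± 0.09), each lost in at least 1 other fit. Fgfr2 rose at SiO2 day 63 (1.20 ± 0.30, adjusted p = 0.00287). Met fell at SiO2 day 7 (-1.29 ± 0.42, adjusted p = 0.0132) and BLM day 63 (-1.74 ± 0.44, adjusted p = 0.00806), with levels of 3.43 ± 0.495 and 2.47 ± 0.757 CPM, against 8.92 ± 4.72 CPM in untreated mice, and both calls were lost without untreated replicate 3.

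Genes that process the factors were counted beside the shares of all tested genes called, which were 44.1%, 24.1% and 27.8% at SiO2 day 7, 14 and 63 and 31.6%, 39.3% and 11.5% at BLM day 7, 14 and 63. Of 6 tested genes of the Met family and of pro-Hgf activation, 2 rose and 3 fell at SiO2 day 7, and 1 rose and 1 fell at SiO2 day 14 and again at SiO2 day 63. After bleomycin 2 rose and 2 fell on day 7, 2 rose and 1 fell on day 14, and 1 rose and 1 fell on day 63. The gene that fell at SiO2 days 14 and 63 was Plg. Its SiO2 day 14 call was lost with DESeq2 (adjusted p = 0.102), without untreated replicate 1 (0.367) and in other fits. Its SiO2 day 63 call was lost without untreated replicate 1 (0.106). The tissue plasminogen activator Plat, a protease that can activate pro-Hgf, rose at BLM day 7 (1.02 ± 0.14), BLM day 14 (1.37 ± 0.14), BLM day 63 (1.12 ± 0.14), SiO2 day 7 (0.58 ± 0.14), SiO2 day 14 (0.76 ± 0.14) and SiO2 day 63 (1.22 ± 0.14). The urokinase gene Plau rose at SiO2 day 7 (2.73 ± 0.60, adjusted p = 3.94e-04) at a level of 6.73 ± 1.13 CPM, against 0.843 ± 1.04 CPM in untreated mice. It averaged 3.39 ± 1.23 CPM at BLM day 7 and 3.78 ± 1.41 CPM at BLM day 14. Plat and Plau were the 2 genes counted as risen in each of these bleomycin groups. The Plau call at BLM day 14 was lost without untreated replicate 1 (adjusted p = 0.120) or 3 (0.0824), or BLM day 14 replicate 1 (0.0876) or 2 (0.0646). Spint2, an inhibitor of Hgf-activating proteases, fell at SiO2 day 7 (-1.06 ± 0.16) and BLM day 7 (-1.12 ± 0.16). Of 10 tested sheddases, their adaptors and the sheddase inhibitor Timp3, 5 rose and 1 fell at SiO2 day 7, 6 rose at SiO2 day 14, 3 rose and 1 fell at SiO2 day 63, and 4 and 1, 5 and 2, and 2 and 0 did so at BLM day 7, 14 and 63. Adam12, a protease known to cleave Hbegf, averaged 53.0 ± 4.93 CPM at SiO2 day 7 and 52.8 ± 18.7 CPM at BLM day 14, against 1.55, 1.76 and 3.28 CPM in the untreated libraries (4.69 ± 0.37 and 4.68 ± 0.38). Adam19, which can cleave neuregulin, rose at SiO2 day 7 (3.19 ± 0.25), SiO2 day 14 (1.44 ± 0.29), SiO2 day 63 (1.45 ± 0.29), BLM day 7 (2.07 ± 0.27) and BLM day 14 (2.90 ± 0.26). Adam17, the main sheddase of Areg and Ereg, was called at SiO2 day 14 (0.62 ± 0.16, adjusted p = 0.00360) and in no other treated group (0.05 to 0.37). Timp3, which inhibits Adam17 and is the gene counted as fallen in these groups, fell at SiO2 day 7 (-0.93 ± 0.13), SiO2 day 63 (-0.46 ± 0.13) and BLM day 7 (-0.68 ± 0.13). Timp3 was also called lower at BLM day 14 (-0.33 ± 0.13, adjusted p = 0.0426) and higher at BLM day 63 (0.42 ± 0.13, adjusted p = 0.0299), the last lost without untreated replicate 1 or 2 or BLM day 63 replicate 2 or 3. The other gene of this list that rose at BLM day 63 was Adam9. Its call was lost without untreated replicate 1 or 2 or BLM day 63 replicate 1 or 2.

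Of 13 tested heparan sulphate proteoglycans and sulphatases, which hold or release Fgf2 and Hbegf, 6 rose and 1 fell at SiO2 day 7, 8 rose at SiO2 day 14, and 6 rose and 2 fell at SiO2 day 63. After bleomycin 7 rose and 1 fell on day 7, 6 rose and 1 fell on day 14, and 2 rose on day 63. The called share of the list was 53.8%, 61.5% and 61.5% at SiO2 day 7, 14 and 63, beside 44.1%, 24.1% and 27.8% of all tested genes, and 61.5%, 53.8% and 15.4% at BLM day 7, 14 and 63, beside 31.6%, 39.3% and 11.5%. The sulphatase Sulf1 averaged 1597 ± 193 CPM at SiO2 day 7, 1751 ± 214 CPM at SiO2 day 63 and 760 ± 120 CPM at BLM day 63, against 306 ± 36.7 CPM in untreated mice (2.39 ± 0.16, 2.52 ± 0.16 and 1.32 ± 0.15). Syndecan 1, encoded by Sdc1, rose at SiO2 day 7 (5.20 ± 0.36), SiO2 day 14 (3.60 ± 0.41), SiO2 day 63 (4.22 ± 0.38), BLM day 7 (2.75 ± 0.46) and BLM day 14 (3.76 ± 0.41). The untreated libraries held 1.55, 0.251 and 2.34 CPM of Sdc1, and the size of these changes rests on those low levels. Of 13 tested feedback genes of receptor tyrosine kinases, 5 were called at BLM day 14, where 3 rose and 2 fell, beside 39.3% of all tested genes. At SiO2 day 7, 1 rose and 3 fell, beside 44.1%, including the inhibitor Spry1 (-1.32 ± 0.18, adjusted p = 5.71e-07). At SiO2 day 63, 1 rose and 2 fell, including Spry2 (-1.06 ± 0.22, adjusted p = 3.04e-04), and at BLM day 7, 2 rose and 1 fell, with Spred1 (0.53 ± 0.11, adjusted p = 3.22e-04) among those that rose. At SiO2 day 14, 1 rose (Lrig3), and at BLM day 63, 1 fell (Errfi1). The Lrig3 call was lost with DESeq2 (adjusted p = 0.0898), upper quartile scaling (0.0958) and several other fits. The Errfi1 call was lost without untreated replicate 2 (0.163) or 3 (0.0586), or without BLM day 63 replicate 2 (0.144).

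**Figure D4:**
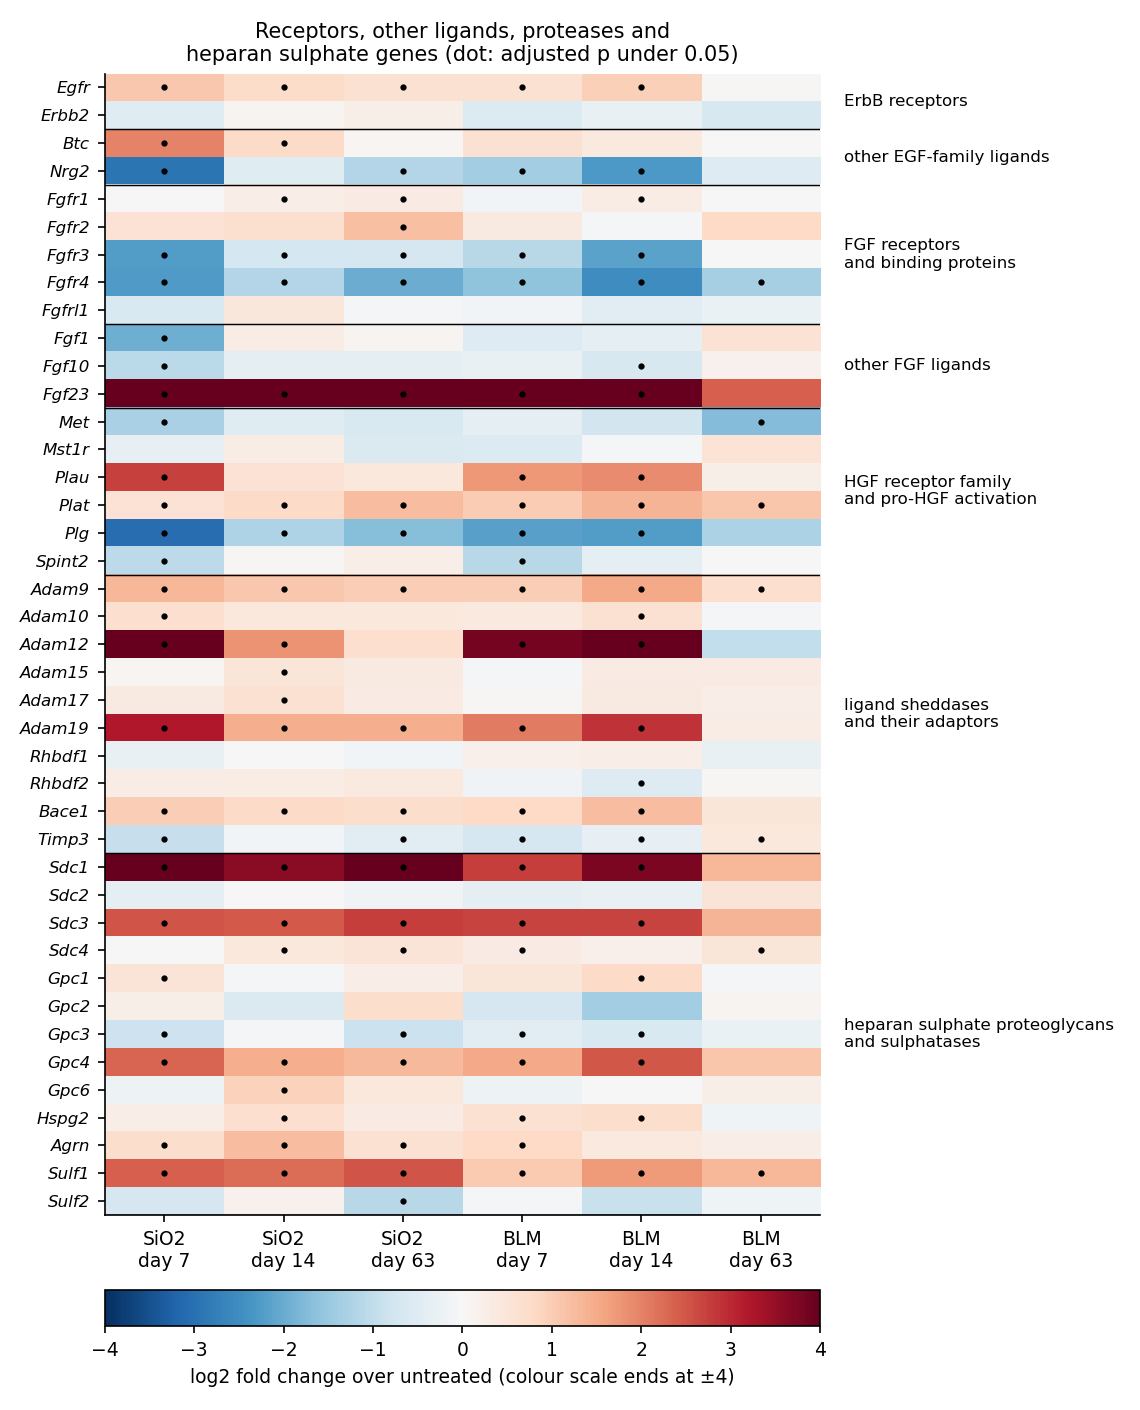
Log2 fold change against untreated mice (edgeR's quasi-likelihood test, colour scale) of the tested receptors, other ligands, proteases and proteoglycans in the 6 treated groups, with a dot on called values. Egfr, Adam12, Adam19, Sdc1 and Sulf1 are mostly higher and Fgfr3, Fgfr4 and Nrg2 mostly lower in treated mice.

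Summed markers of leukocytes, epithelium and endothelium were lower than those of fibroblasts but not constant across these groups, and their part in the results above was not tested. The summed level of 7 myeloid markers was 9.11 to 13.5 CPM at SiO2 day 7, 18.0 to 32.4 at SiO2 day 14, 19.2 to 23.7 at SiO2 day 63, 14.5 to 23.1 at BLM day 7, 9.67 to 14.6 at BLM day 14 and 2.67 to 5.72 CPM at BLM day 63, against 3.11 to 6.53 CPM in untreated mice. Most of it was Tyrobp, Ptprc had 0 counts in all BLM day 14 libraries, and Fcer1g had 0 counts in all SiO2 day 7 and untreated libraries. The 3 mast cell and basophil markers summed to at most 0.598 CPM. The summed level of 9 epithelial markers was 20.3 to 30.9 CPM at SiO2 day 7 and 29.2 to 33.7 CPM at BLM day 7, mainly from Sftpc and Sftpb, against 7.77 to 13.1 CPM in untreated mice, and in the 4 later groups it was 4.23 to 10.9 CPM. Of 5 lymphocyte markers, Cd3e had 0 counts in all 18 treated libraries; their sum, mainly from Ccl5, was 30.3 to 72.7 CPM at SiO2 day 7, 25.8 to 36.5 at SiO2 day 14, 34.5 to 46.0 at SiO2 day 63, 33.0 to 55.1 at BLM day 7, at most 15.9 at BLM day 14 and at most 6.47 CPM at BLM day 63, against 4.92 to 10.8 CPM in untreated mice. The endothelial marker Cdh5 had 0 counts in all libraries outside SiO2 day 63, and the list summed to 8.10 to 13.0 CPM at SiO2 day 7 and 22.4 to 30.9 CPM in untreated mice.

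Other marker sums also differed between the groups. The 8 markers of pericytes and smooth muscle summed to 155 to 196 CPM at SiO2 day 7, 80.4 to 101 at SiO2 day 14, 114 to 135 at SiO2 day 63, 78.6 to 148 at BLM day 7, 172 to 216 at BLM day 14 and 66.5 to 94.1 CPM at BLM day 63, against 35.2 to 41.2 CPM in untreated mice, where Mcam, Rgs5 and Cnn1 had 0 counts. The 6 mesothelial markers summed to 515 to 640 CPM in untreated mice. After silica the sum was 126 to 179 CPM on day 7, 395 to 515 on day 14 and 222 to 254 on day 63. After bleomycin the sum was 269 to 375 CPM on day 7, 385 to 440 on day 14 and 354 to 431 on day 63. The 23 immediate-early and dissociation genes, a class that cell isolation can induce, summed to 25199 to 27916 CPM at SiO2 day 7, 27425 to 34446 at BLM day 7 and 26106 to 30902 CPM at BLM day 14, against 41518 to 46147 CPM in untreated mice. At BLM day 63, where Hgf and Fgf7 were highest, that sum was 42236 to 45648 CPM. It was 34456 to 45476 CPM at SiO2 day 14 and 33694 to 36364 CPM at SiO2 day 63. These values are given beside the factors, and their part in the results was not tested.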

How the data were processed

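Messenger RNA tags of sorted lung fibroblasts were measured by 3′SAGE-seq in 21 libraries. The deposited values are whole-number counts per gene symbol, 1 table per library, with no normalization. Bowtie2 2.2.5 and mm10 are named in the submitters' processing notes; the annotation, the counting program, filters and the strand setting are not given in the sources used here. Groups came from the deposited titles. From the counts, edgeR 4.0.16 (R 4.3.3) removed low genes with filterByExpr by group, which kept 11669 symbols with 99.68% of counts, scaled libraries by TMM and fitted a quasi-likelihood model of the 7 groups with 14 residual degrees of freedom. The 12 contrasts were adjusted by Benjamini-Hochberg over the 11669 genes, with calls at 0.05. Levels are CPM computed here from the deposited counts.

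Total counts of 2080636 to 4477283 set the precision: 3 counts over the untreated libraries correspond to 0.303 CPM. The tags carry no molecular identifiers in the tables, so intervals cover counting error only. No replicate pair had identical counts. Locations and overlaps came from GENCODE vM21 (mm10), promoter windows from RefSeq (GRCm38.p6). All 8 factors were described whatever their values. From each pathway list up to 3 genes with the smallest adjusted p in a comparison were eligible for naming, with Egfr, Erbb2, Fgfr1, Fgfr2, Met, Fgf10 and Adam17 at any value. Some genes eligible in a comparison, such as Plat and Plau, were also described in others. For each tested factor the eligible like genes were the 3 with the highest correlation. The factors and lists were chosen with earlier results of these data known. Alternatives were DESeq2 1.42.0, limma-voom (limma 3.58.1), upper quartile scaling, no filter, a replicate block, only the groups compared, leaving out each library, and CPM by total counts. The steps were tested on simulated counts.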

Additional observations from a re-analysis of the deposited data

Results flagged for a closer look

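The values here are log2 differences between the models that passed a direct test of the difference (edgeR's quasi-likelihood test, adjusted over 11669 genes, 3 libraries per group); they are given without an explanation. On day 7, SiO2 minus BLM was 2.50 for Nrg1, 0.88 for Ereg, 0.58 for Fgf7, -0.94 for Fgf2 and -0.95 for Fgf18. On day 14 it was 0.90 for Fgf7, 0.95 for Nrg1, 0.36 for Hgf, -0.70 for Fgf2, -2.05 for Ereg and -2.60 for Hbegf. Ereg thus stood higher after silica on day 7 and lower on day 14. On day 63 it was 3.70 for Nrg1 and -0.66 for Hgf. The change from day 14 to day 63 after silica, minus that after bleomycin, was 2.77 for Hbegf, 2.75 for Nrg1, 2.68 for Ereg, 0.42 for Fgf2, -1.02 for Hgf and -1.07 for Fgf7.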

How the results depend on the processing

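No difference of a tested factor that was called changed its sign under the alternatives run. Of 2265 refits of single factors, 2189 stayed on the same side of the threshold, 61 lost a call and 15 gained one. In 18 of them the sign turned, in 9 differences that were not called, with values of -0.30 to 0.05 (Hgf, Fgf2 and Fgf18). Lost and gained calls are given beside their results, some of them only as a number of fits, and the cause was not tested. Leaving out 1 library in turn gave 795 to 1408 genes called between BLM day 63 and untreated mice, against 1343 with all libraries. The lowest counts were 795 without untreated replicate 1 and 814 when BLM day 63 replicate 3 was left out. Between SiO2 day 63 and SiO2 day 14 it gave 201 to 465 genes, against 411, with 231 without SiO2 day 14 replicate 3 and 265, 201 and 249 without SiO2 day 63 replicates 1, 2 and 3. In that comparison 0 to 1 factors were called, 0 without SiO2 day 14 replicate 1 or SiO2 day 63 replicate 2 or 3.

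The replicate numbers recur in every group. In libraries with the same number, deviations from group means had correlations of -0.12 to 0.06 over 63 pairs, 0 of them over 0.1. Of 21 libraries, 5 correlated best with their own number. These values cover all tested genes together, and an effect shared by a number on single genes was not tested. A replicate block called 3624 genes at BLM day 7 against 3685 without it, and changed the number of factors called only in the interaction, 5 in place of 6 (Fgf2, adjusted p = 0.0555). In the 6 comparisons with untreated mice the share of higher calls was 52.3% to 56.4%, and 44.8% to 47.2% under upper quartile scaling. Mean levels of all 8 factors in all 7 groups moved by less than 1 SD under scaling by total counts. Depth limits Areg in all groups, Ereg in the untreated libraries, and Nrg1 in the untreated and BLM day 63 libraries. Counts were also low for Ereg at BLM day 63 (13, 27 and 17) and for Hbegf in untreated mice (10, 22 and 11). The same held for Nrg1 at BLM day 7 (11, 18 and 13) and BLM day 14 (8, 13 and 10).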
